A study of Mus musculus with 8 samples.

Results

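Primary granules, also called azurophil granules, are the first storage granules that a developing neutrophil makes, and 7 genes for their contents and for the promyelocytes that build them were followed in leukemic mouse bone marrow. The genes were taken by symbol from a list of promyelocyte primary granule genes: Mpo, Elane, Prtn3, Ctsg, Prss57, Ms4a3 and Fcnb. All 7 were found among the 23997 genes of the table, and all 7 passed the filter on low values that left 12565 genes for testing. Marrow came from C57BL/6 mice that had died of leukemia, 8 libraries in 3 groups: AML1-ETO with Meis2 (AE+Meis2, n = 3), AML1-ETO9a with Meis2 (AE9a+Meis2, n = 3) and AML1-ETO9a alone (AE9a, n = 2). The transcripts of the 7 genes were very uneven. Mpo, the most abundant by its mean, ran from 117 to 2484 FPKM (fragments per kilobase of transcript, scaled to the mapped total). The 3 AE+Meis2 marrows alone held it at 1278, 138 and 2484 FPKM. Prss57 was low throughout, at 1.51 to 43.8 FPKM, and Fcnb ran from 1.05 to 313 FPKM. None of the 7 genes differed between the groups beyond the spread among marrows of 1 group, in any of 3 comparisons. The make-up of the transcripts lay apart as labelled, a description noticed after the values were seen: Mpo was 3.81 to 4.74 times Prtn3 in AE+Meis2, against 0.805 to 1.87 in AE9a+Meis2 and 0.876 to 3.01 in AE9a. The 4.74 comes from a library whose fusion and Meis2 transcripts go against its label. If that library belonged to a group with AE9a, that group alone would overlap AE+Meis2. The design asked how these marrows resemble each other and differ.

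The peroxidase Mpo turns hydrogen peroxide and chloride into the bactericidal oxidant hypochlorous acid. Elane (neutrophil elastase), Prtn3 (proteinase 3), Ctsg (cathepsin G) and Prss57 (neutrophil serine protease of arginine specificity) are serine proteases that are made as inactive precursors, trimmed by the dipeptidyl peptidase Ctsc and stored active in the granule. Ms4a3 is a membrane protein of the MS4A family that marks granulocyte and monocyte progenitors, and Fcnb (ficolin B) is a lectin that binds microbial sugars. Transcription of primary granule genes runs in promyelocytes and stops as the cell matures, when genes of the secondary granules such as Ltf and Ngp take over, so the level of these transcripts in marrow is a common reading of how many cells stand at the promyelocyte stage. The transcription factors PU.1, C/EBP, MYB and RUNX1 are known regulators of these genes, and RUNX1 is the part of AML1-ETO that binds DNA.

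All 3 groups started from the same kind of cell. Donor mice received 5-fluorouracil, and marrow was taken 4 days later and cultured with SCF, IL3 and IL6. The cells were transduced with AML1-ETO plus Meis2, AML1-ETO9a plus Meis2, or AML1-ETO9a, and transplanted 48 hours later into lethally irradiated mice. AML1-ETO fuses RUNX1 to the corepressor RUNX1T1, AML1-ETO9a is its truncated splice form, and Meis2 is a TALE homeobox factor. Median latency was 171 days with AE+Meis2, 102 days with AE9a+Meis2 and 138 days with AE9a. The promoter of the vectors, the age and number of donors, and any sort of the marrow are, in the sources used here, not given. Marrow without a fusion gene was not analysed here, so no value below is set against healthy marrow. Each library is a bulk sample of marrow, in which fewer cells of a type and less RNA per cell cannot be told apart.

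The genes lie at 5 places in the genome (RefSeq, GRCm38.p6). Mpo is at chr11:87793784-87804412 and Ctsg at chr14:56099885-56102574, inside the cluster of granzyme and mast cell protease genes. Prtn3 (chr10:79879667-79883174) and Elane (chr10:79886312-79888216) are neighbours with 3137 bases between them, and Prss57 (chr10:79781474-79794684) lies 84982 bases before Prtn3. Ms4a3 is at chr19:11629499-11640851 and Fcnb at chr2:28076479-28084910. The sequence before the gene start is shown for the 6 genes with an entry in the RefSeq promoter table, to set the known regulators of these genes beside the letters before each start. Each is part of the 250 bases before the RefSeq gene start, printed 5′ to 3′ on the gene's strand, and it stops before the first base that the GENCODE annotation places in an exon. Capitals mark GGAAGT, a core bound by ETS factors such as PU.1.
Mpo (chr11:87793534-87793580, plus strand): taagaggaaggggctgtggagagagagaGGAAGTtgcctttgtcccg
Elane (chr10:79886062-79886246, plus strand): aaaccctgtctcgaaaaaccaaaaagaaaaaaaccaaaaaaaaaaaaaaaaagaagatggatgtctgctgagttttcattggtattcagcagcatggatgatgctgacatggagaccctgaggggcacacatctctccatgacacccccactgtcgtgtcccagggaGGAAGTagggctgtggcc
Prtn3 (chr10:79879417-79879613, plus strand): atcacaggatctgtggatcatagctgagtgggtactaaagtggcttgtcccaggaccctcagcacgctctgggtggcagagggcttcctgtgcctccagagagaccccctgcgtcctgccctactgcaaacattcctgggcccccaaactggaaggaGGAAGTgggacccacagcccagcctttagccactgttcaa
Ctsg (chr14:56102575-56102824, minus strand): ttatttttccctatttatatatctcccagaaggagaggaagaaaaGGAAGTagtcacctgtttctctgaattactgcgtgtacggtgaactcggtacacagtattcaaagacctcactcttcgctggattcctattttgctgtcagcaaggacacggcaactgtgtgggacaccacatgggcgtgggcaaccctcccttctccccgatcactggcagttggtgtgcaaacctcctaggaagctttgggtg
Ms4a3 (chr19:11640852-11641101, minus strand): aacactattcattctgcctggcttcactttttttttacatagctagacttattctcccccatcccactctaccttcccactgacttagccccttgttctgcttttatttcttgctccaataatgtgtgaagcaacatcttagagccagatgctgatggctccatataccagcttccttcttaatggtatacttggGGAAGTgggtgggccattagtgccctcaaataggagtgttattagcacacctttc
Fcnb (chr2:28084886-28085128, minus strand): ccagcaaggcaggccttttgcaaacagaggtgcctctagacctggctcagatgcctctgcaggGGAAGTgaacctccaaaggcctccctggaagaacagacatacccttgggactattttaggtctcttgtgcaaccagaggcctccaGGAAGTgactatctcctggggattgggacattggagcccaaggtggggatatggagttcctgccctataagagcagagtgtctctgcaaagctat
GGAAGT on either strand was present in the 250 bases of all 6 genes, and in 19.7% of 32851 mouse promoters of that length. It was first noticed by eye in these sequences, so this count is a description. It began 55 bases before the start of Ms4a3, 83 before Elane, 93 before Prtn3, 205 before Ctsg and 222 before Mpo, with 2 copies at 187 and 102 bases before Fcnb. The RUNX core TGTGGT, searched on both strands, was found in 1 of the 6 (Ctsg), against 14.05% of all promoters. The C/EBP pattern TTNNGNAA, on both strands, was found in 2 of the 6 (Ms4a3 and Fcnb), against 36.8%. The MYB core AACNG, on both strands, was found in 5 of the 6, against 74.2%. TATAA on the gene's strand was found in Elane, Prtn3 and Fcnb, 3 of the 6 against 16.0% of all promoters, at 31, 32 and 37 bases before the start. All counts are over the full 250 bases. The TATAA of Elane and Prtn3 and the MYB matches of Mpo and Elane lie past the printed letters, in the part left out from the first GENCODE exon base on. In Ms4a3 the GGAAGT match overlapped the C/EBP match, and in Fcnb a C/EBP match overlapped a MYB match. A match is a run of letters and was not tested for binding.

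The libraries differed in ways that touch the values below. Runx1t1, the ETO part of the fusion, had 223 FPKM in AE+Meis2 replicate 2 and 218 FPKM in replicate 3. It was at 21.6 FPKM in replicate 1, inside the range of 10.3 to 26.8 FPKM of the 5 libraries with AE9a. Meis2 was at 13.1 FPKM in that library, below the 13.2 FPKM of AE9a replicate 2, so it is written as the library labelled AE+Meis2 replicate 1. AE9a+Meis2 replicate 3 and AE9a replicate 1 held values above 0 in 84.1% and 72.1% of 1543 genes that marrow does not use, against 3.37% to 6.61% in the other libraries. Depth is known only relative to AE9a+Meis2 replicate 2 and roughly, from 12.1% in AE9a replicate 1 to 65.98% in AE9a+Meis2 replicate 1. AE+Meis2 replicate 2 was at 14.9%, and the remaining libraries were at 31.9% or more. Both shallow libraries, AE+Meis2 replicate 2 and AE9a replicate 1, also held the lowest sums of the 7 genes (324 and 455 FPKM). The part of depth in these sums was not tested. Pan-leukocyte genes (Ptprc, Laptm5, Coro1a, Spi1 and Vav1) were at 1 FPKM or more in every library, and all 7 granule genes were as well.

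Mpo was the most abundant of the 7 by its mean over the libraries. It stood at 1278, 138 and 2484 FPKM in AE+Meis2, at 349.9, 1355 and 188 FPKM in AE9a+Meis2 marrows, and at 117 and 533 FPKM in AE9a marrows. AE+Meis2 thus held the highest value and also a value close to the lowest, and its range took in every AE9a+Meis2 library and 1 of the 2 AE9a libraries. The means were 1299.9 ± 1173 FPKM in AE+Meis2, 631 ± 632 FPKM in AE9a+Meis2 and 325 ± 294 FPKM in AE9a (SD, n = 3, 3 and 2), the SD being about as large as the mean in each. Within AE+Meis2 the highest library was 17.99 times the lowest. Mpo ranked above at least 95.6% of the genes tested in every library, the smallest share being in AE+Meis2 replicate 2.

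Among the proteases, Ctsg came closest to Mpo. It was at 1139.5, 74.9 and 1491 FPKM in AE+Meis2, at 615, 645 and 65.8 FPKM in AE9a+Meis2 marrows, and at 92.0 and 214 FPKM in AE9a marrows. Replicate 2 of AE+Meis2 and replicate 3 of AE9a+Meis2 lay below both AE9a libraries, and the other 4 libraries with Meis2 lay above them. Elane was at 229, 43.5 and 1128 FPKM in AE+Meis2, at 132, 648 and 149 FPKM in AE9a+Meis2 marrows, and at 45.3 and 162 FPKM in AE9a marrows. Its highest library was 25.9 times its lowest, and both were AE+Meis2. Prtn3 was at 269.8, 36.3 and 604 FPKM in AE+Meis2, at 435, 724 and 152 FPKM in AE9a+Meis2 marrows, and at 134 and 177 FPKM in AE9a marrows. It was the only gene of the 7 with its highest value outside AE+Meis2, in AE9a+Meis2 replicate 2, and its AE9a libraries lay closest together, 1.32-fold apart. Prss57 was low throughout, at 11.01, 2.72 and 43.8 FPKM in AE+Meis2, at 1.89, 23.7 and 5.53 FPKM in AE9a+Meis2 marrows, and at 1.51 and 4.77 FPKM in AE9a marrows. The RefSeq model of Prss57 overlaps the ends of Palm and Fstl3, and the library kit does not keep the strand, so reads of these genes could be shared and its value is less certain.

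The remaining genes, Ms4a3 and Fcnb, are no enzymes. Ms4a3 was at 361, 26.1 and 619.9 FPKM in AE+Meis2, at 449.7, 170.4 and 30.5 FPKM in AE9a+Meis2 marrows, and at 61.4 and 105 FPKM in AE9a marrows. As for Ctsg, AE+Meis2 replicate 2 and AE9a+Meis2 replicate 3 were its lowest libraries. Fcnb was at 11.8, 2.63 and 313 FPKM in AE+Meis2, at 1.05, 29.1 and 83.3 FPKM in AE9a+Meis2 marrows, and at 3.52 and 22.2 FPKM in AE9a marrows. It had the widest range of the 7, 298-fold over the 8 libraries and 119-fold within AE+Meis2. The groups overlapped for all 7 genes in all 3 comparisons.

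**Figure D1:**
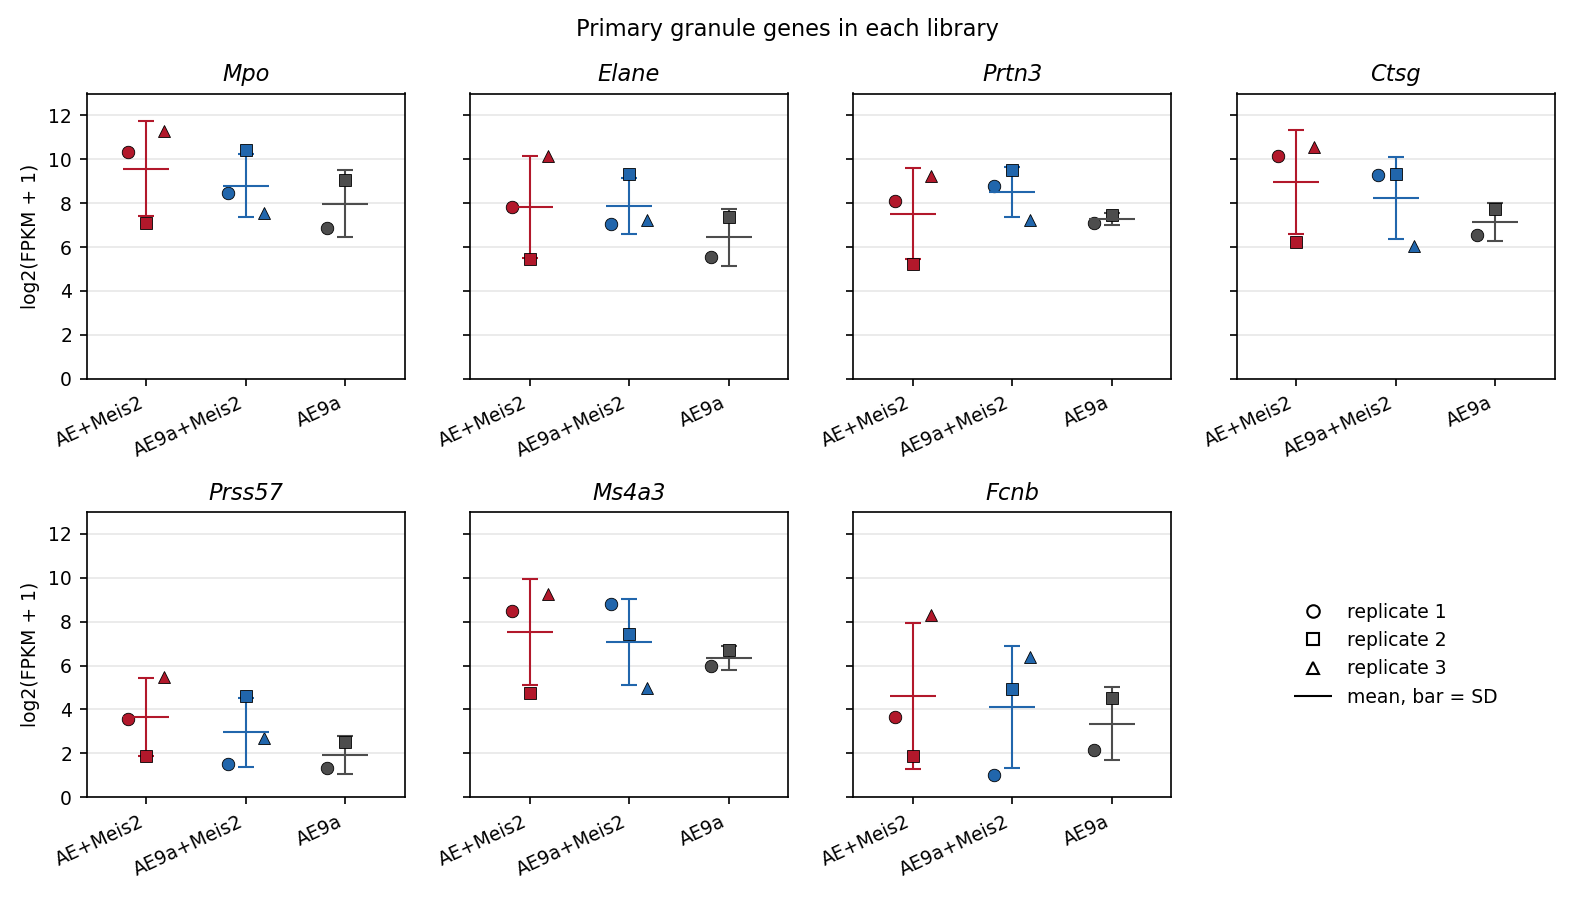
Level of each primary granule gene as log2(FPKM + 1) in AE+Meis2 (3 libraries), AE9a+Meis2 (3) and AE9a (2). Points are libraries, marked by replicate number, lines are group means and bars the SD on the log2 scale. In every panel the groups overlap, and AE+Meis2 replicate 3 lies above AE+Meis2 replicate 2.

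The first comparison, AE9a+Meis2 against AE9a, bears on the addition of Meis2 to the truncated fusion. All 7 genes, against 49.8% of the genes tested, were higher on average in AE9a+Meis2 than in AE9a, and none passed. The 7 genes share the depth, scaling and cell mix of each marrow, so they are not 7 separate observations. The log2 differences, here and below on the log2(FPKM + 1) scale, ran from 0.73 for Ms4a3 to 1.43 for Elane, with a median of 1.03, against a median of -0.0011 over all genes tested. The log2 difference was 1.43 ± 1.35 (SE) for Elane, with a 95% interval from -1.74 to 4.60. Prtn3 followed with 1.23 ± 1.15 (-1.46 to 3.92), and Mpo had 0.83 ± 1.37 (-2.37 to 4.04). In limma with Benjamini-Hochberg adjustment over all genes, 0 of the 7 passed a threshold of 0.05 (adjusted p = 1 for each), while 0.0478% of the genes tested were called in this comparison. At an unadjusted p under 0.05 the count was likewise 0 of 7, against 3.06% of the genes tested. The groups did not overlap for 0 of the 7, against 23.8% of the genes tested. With AE9a+Meis2 replicate 3 and AE9a replicate 1 both left out, since they hold values in silent genes, the median was 0.85. Single libraries moved it too. It was 0.43 without AE9a replicate 1, which was among the 3 lowest libraries for each gene, and 0.52 without AE9a+Meis2 replicate 2. It was 1.76 without AE9a+Meis2 replicate 3 and 1.68 without AE9a replicate 2. Mpo and Fcnb had the opposite sign without AE9a replicate 1 (-0.25 and -0.42), and Ms4a3 without AE9a+Meis2 replicate 1 (-0.15).

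The second comparison, AE+Meis2 against AE9a+Meis2, bears on how the full-length and the truncated fusion differed in the presence of Meis2. The log2 difference of Prtn3 was -0.99 ± 1.02 (-3.40 to 1.41), lower in AE+Meis2, Elane stood at -0.05 ± 1.21 (-2.89 to 2.78), and the other 5 genes were higher by 0.44 to 0.77. The largest of these was Mpo, with 0.77 ± 1.22 (-2.10 to 3.63). The median of the 7 was 0.50, against 0.04 over all genes tested, of which 54.9% were higher in AE+Meis2. In limma 0 of the 7 passed (adjusted p = 0.859 to 0.997), against 0.0398% of the genes tested, and 0 of 7 had an unadjusted p under 0.05, against 7.15%. The groups did not overlap for 0 of the 7, against 13.5% of the genes tested. These small differences turned with single libraries. Without AE+Meis2 replicate 2 the median was 1.82 and Prtn3 was at 0.15, and without AE+Meis2 replicate 3 the median was -0.44. With the library labelled AE+Meis2 replicate 1 left out it was 0.17. On the other side it was -0.01, 0.89 and -0.32 without AE9a+Meis2 replicates 1, 2 and 3.

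The third comparison, AE+Meis2 against AE9a, differs in both the fusion and Meis2, and it shares its libraries with the comparisons above. All 7 genes were higher on average in AE+Meis2, against 55.9% of the genes tested, and here too they are not 7 separate observations. The differences ran from 0.24 for Prtn3 to 1.84 for Ctsg, with a median of 1.38 against 0.06 over all genes tested. Ctsg differed by 1.84 ± 1.48 (-1.64 to 5.32), Prss57 by 1.73 ± 1.19 (-1.06 to 4.52) and Mpo by 1.60 ± 1.37 (-1.60 to 4.80). In limma 0 of the 7 passed (adjusted p = 0.950 to 0.988), against 0.0318% of the genes tested. At an unadjusted p under 0.05 the count was 0 of 7, against 5.98%, and the groups did not overlap for 0 of the 7, against 18.6%. The median was 2.61 without AE+Meis2 replicate 2, 0.29 without AE+Meis2 replicate 3 and 1.25 when the library labelled AE+Meis2 replicate 1 was left out. It was 0.51 without AE9a replicate 1 and 2.33 without AE9a replicate 2. The sign of the Prtn3 difference depended on the scaling: it was -0.21 after quantile normalization and -0.13 after small RNAs were left out and each library was rescaled to 1 common total.

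**Figure D2:**
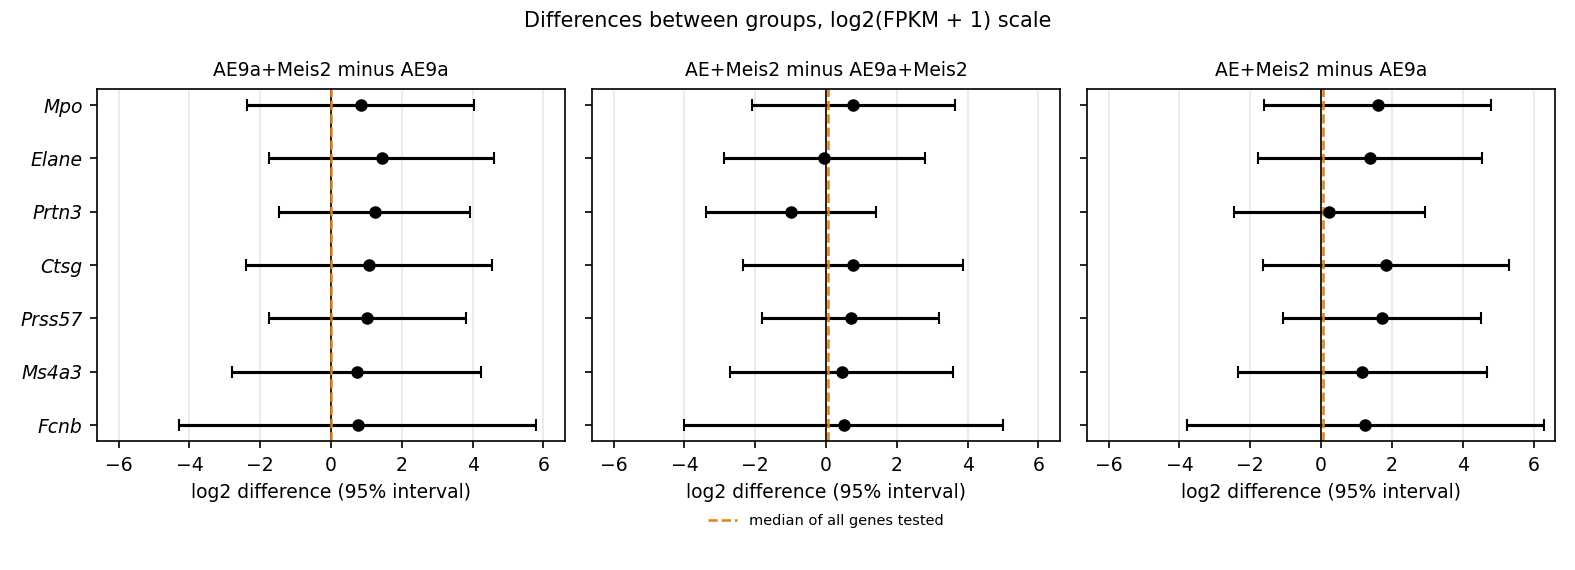
Log2 difference of each gene in the 3 comparisons, AE9a+Meis2 minus AE9a, AE+Meis2 minus AE9a+Meis2 and AE+Meis2 minus AE9a, on the log2(FPKM + 1) scale. Points are limma estimates, bars 95% intervals, and the dashed line is the median of all genes tested; every interval includes 0, and that of Fcnb is the widest.

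The width of these intervals came from the spread inside the groups. The residual SD, the spread of log2(FPKM + 1) among libraries of 1 group pooled over the groups, was 1.501 for Prtn3, 1.55 for Prss57, 1.78 for Elane, 1.79 for Mpo, 1.95 for Ctsg, 1.98 for Ms4a3 and 2.83 for Fcnb. The median over all genes tested was 0.38. The 7 genes had a larger residual SD than 96.8% to 99.1% of the genes tested. Against genes within 1 log2 unit of their own level, the share was 91.6% for Mpo and 99.2% for Fcnb, the lowest and the highest of the 7. Primary granule transcripts thus varied more among marrows of 1 group than most genes of their level did.

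The 7 transcripts together held 3299.9, 324 and 6683 FPKM in AE+Meis2, 1984, 3594 and 673 FPKM in AE9a+Meis2 and 455 and 1218 FPKM in AE9a. As a share of all summed FPKM without small RNAs this was 0.586%, 0.0606% and 0.774% in AE+Meis2, 0.383%, 0.677% and 0.122% in AE9a+Meis2 and 0.0971% and 0.234% in AE9a. The library labelled AE+Meis2 replicate 1, AE+Meis2 replicate 3 and AE9a+Meis2 replicate 2 were the 3 richest, and AE+Meis2 replicate 2 was the poorest.

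What the 7-gene sum was made of differed as well. Mpo made up 38.7%, 42.6% and 37.2% of it in AE+Meis2, 17.6%, 37.7% and 27.9% in AE9a+Meis2 and 25.8% and 43.7% in AE9a. Prtn3 made up 8.18%, 11.2% and 9.04% in AE+Meis2, 21.9%, 20.1% and 22.5% in AE9a+Meis2 and 29.4% and 14.5% in AE9a. Each of the 3 libraries labelled AE+Meis2 gave Prtn3 a smaller share than any library labelled AE9a+Meis2 or AE9a. The ratio of Mpo to Prtn3, both per length, shows the same separation: it was 4.74, 3.81 and 4.11 in AE+Meis2, 0.805, 1.87 and 1.24 in AE9a+Meis2 and 0.876 and 3.01 in AE9a. A ratio within a library does not depend on how that library was scaled. The separation rests on the labels: the library labelled AE+Meis2 replicate 1, whose Runx1t1 and Meis2 levels go against its label, has the smallest Prtn3 share and the highest ratio of all 8. With it left out, AE+Meis2 replicates 2 and 3 still lie apart from the AE9a+Meis2 and AE9a libraries, but if it belonged to a group with AE9a, that group would overlap AE+Meis2.

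This ratio was noticed after the values were seen, so it is given as a description, and an exact permutation test of 3 libraries against 3 cannot go below 0.1. Of the 21 ratios that 7 genes allow, 4 did not overlap between AE+Meis2 and AE9a+Meis2: Mpo to Prtn3, Prtn3 to Ctsg, Prtn3 to Prss57 and Elane to Prss57. Between AE+Meis2 and AE9a these and 2 more did not overlap, 6 in all, and between AE9a+Meis2 and AE9a it was 0. As a background, ratios of Mpo to each of 12127 other tested genes above 0 in every library did not overlap between AE+Meis2 and AE9a+Meis2 for 1.11%, and ratios of Prtn3 for 0.998%. Between AE+Meis2 and AE9a the shares were 5.29% for Mpo and 3.46% for Prtn3, and between AE9a+Meis2 and AE9a 1.60% and 33.7%. Most of the 7 genes rose and fell together across libraries, so ratios among them are not like ratios to any other gene. Mpo to Prtn3, Prtn3 to Ctsg and Prtn3 to Prss57 share Prtn3 and are not separate results. Elane to Prss57 has no such background, and the value of Prss57 is less certain. Prtn3 to Ctsg was 0.237 to 0.484 in AE+Meis2, 0.707 to 2.30 in AE9a+Meis2 and 0.826 to 1.46 in AE9a. Elane and Prtn3, next to each other on chromosome 10, did not keep 1 ratio either: Elane to Prtn3 ran from 0.849 to 1.87 in AE+Meis2, from 0.304 to 0.981 in AE9a+Meis2 and from 0.338 to 0.916 in AE9a, with overlapping groups.

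**Figure D3:**
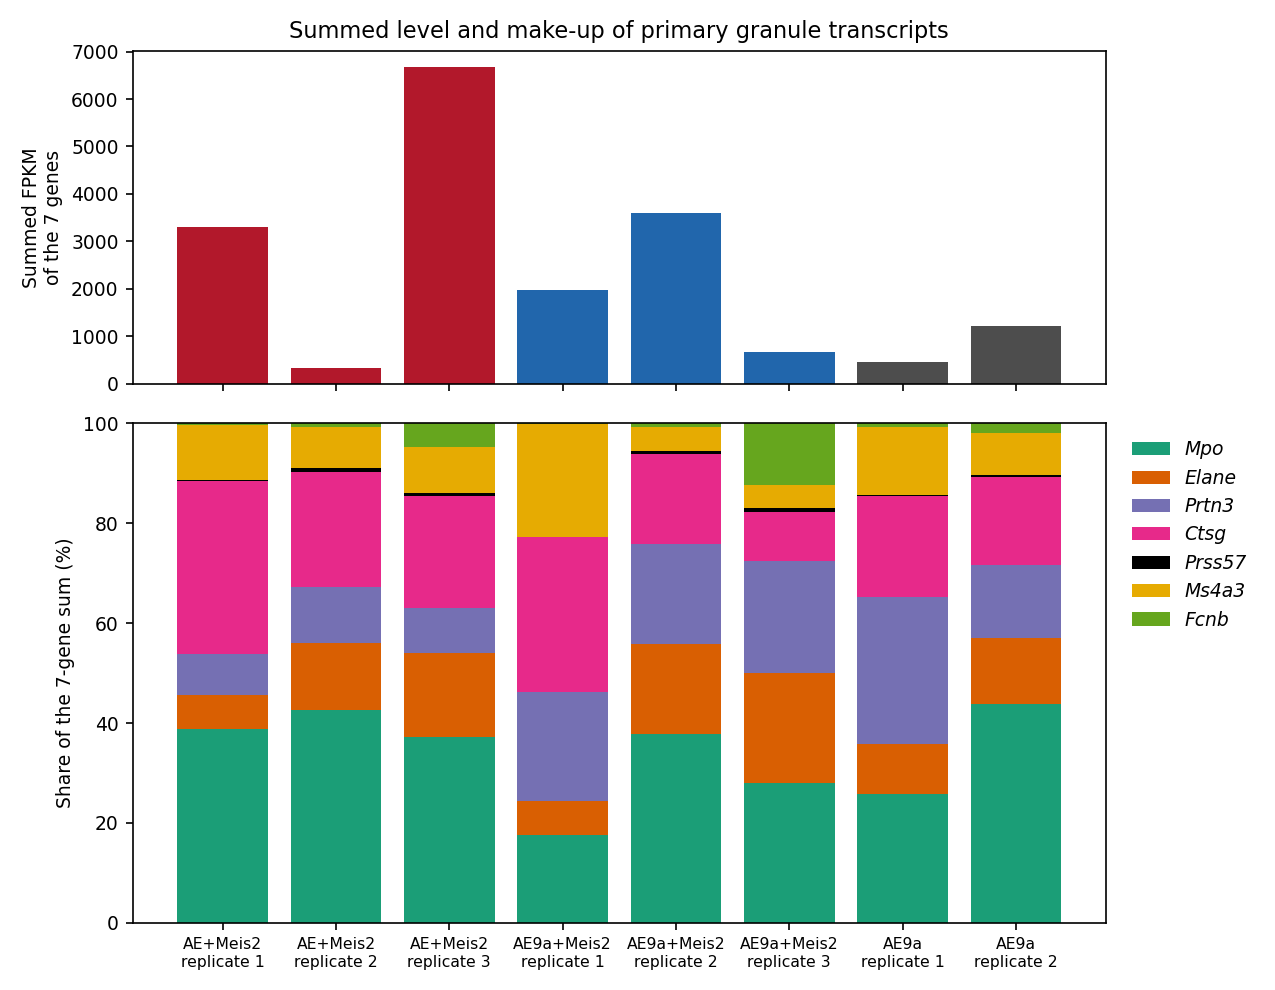
Upper panel, summed FPKM of the 7 genes in each library, from 324 FPKM in AE+Meis2 replicate 2 to 6683 FPKM in AE+Meis2 replicate 3. Lower panel, percent of that sum held by each gene: Prtn3 takes 8.18% to 11.2% in the AE+Meis2 libraries, 20.1% to 22.5% in AE9a+Meis2 and 14.5% to 29.4% in AE9a, and the Fcnb share is largest in AE9a+Meis2 replicate 3.

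Across libraries most of the genes went up and down together. Over all 8 libraries the Pearson correlation of log2(FPKM + 1) of 1 gene with the mean of the other 6 was 0.96 for Mpo and for Elane, 0.86 for Prss57, 0.85 for Ctsg, 0.83 for Prtn3 and 0.75 for Ms4a3. It was 0.56 for Fcnb. These points share depth, scaling and the cell mix of each marrow, and no p is given. Without AE+Meis2 replicate 2 (n = 7) the values were 0.96 and 0.95 for Mpo and Elane, 0.67 for Ms4a3 and 0.45 for Fcnb.

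AE9a+Meis2 replicate 1 and replicate 3 were where the genes parted. In replicate 1 Prtn3, Ctsg and Ms4a3 were at 435, 615 and 449.7 FPKM, each among the 4 highest of the 8 libraries. Fcnb, at 1.05 FPKM, was the lowest of the 8 there, and Prss57, at 1.89 FPKM, was the last but one. In replicate 3 the order was turned round, with Fcnb the second highest at 83.3 FPKM, Ctsg the lowest of the 8 at 65.8 FPKM and Ms4a3 the last but one at 30.5 FPKM. Mpo to Fcnb was 334 in replicate 1 and 2.26 in replicate 3 of this group.

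Fcnb shared its highest and lowest libraries with some genes of the next granule stage. Ltf (lactoferrin, a secondary granule protein, chosen after its values were seen) was at 170 FPKM, 30.4 FPKM and 2542 FPKM in AE+Meis2, at 10.1, 283 and 1444 FPKM in AE9a+Meis2 marrows, and at 72.1 and 502 FPKM in AE9a marrows. Cebpe, the C/EBP factor that drives secondary granule genes, was at 13.7, 0.5005 and 115 FPKM in AE+Meis2, at 1.46, 14.5 and 26.1 FPKM in AE9a+Meis2 marrows, and at 4.78 and 16.1 FPKM in AE9a marrows. Fcnb, Ltf and Cebpe shared their highest library (AE+Meis2 replicate 3), their second highest (AE9a+Meis2 replicate 3) and the pair of lowest libraries (AE+Meis2 replicate 2 and AE9a+Meis2 replicate 1). Between these the order was not the same: AE9a+Meis2 replicate 2 was above AE9a replicate 2 for Fcnb and below it for Ltf and Cebpe. Secondary granule genes did not all follow: in AE9a+Meis2 replicate 1, Hp (1504 FPKM), Mmp8 (501 FPKM) and Cd177 (211 FPKM) were above both AE9a libraries. Ltf to Elane, a secondary over a primary granule transcript, was 0.744, 0.700 and 2.25 in AE+Meis2, 0.0767, 0.437 and 9.70 in AE9a+Meis2 and 1.59 and 3.10 in AE9a. The 3 AE9a+Meis2 marrows thus lay further apart on this ratio than the 3 groups did by their means, which were 1.23 ± 0.884 in AE+Meis2, 3.41 ± 5.46 in AE9a+Meis2 and 2.34 ± 1.06 in AE9a (SD, n = 3, 3 and 2).

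The genes whose pattern was most like that of the 7 were ranked by the Pearson correlation with their mean standardised level over the 8 libraries. Gfi1 came first (0.97), a transcriptional repressor needed for neutrophil maturation, with 18.7, 2.42 and 50.8 FPKM in AE+Meis2, 8.48, 14.6 and 7.30 FPKM in AE9a+Meis2 and 4.23 and 10.1 FPKM in AE9a. Chil3 (0.97), a chitinase-like protein of neutrophil precursors and macrophages, was far more abundant, from 516 to 10539 FPKM. Cep128, Clec4b2, Lysmd3, Fbp1, Tmem194, Slc4a1ap, Arhgef39 and Dtx4 completed the first 10, with correlations of 0.95 to 0.97. Of 8653 genes with a mean of at least 5 FPKM that were ranked, 46 (0.532%) had a correlation over 0.9, and the median was 0.17. With 8 libraries, and genes ranked by this measure, these values are a description.

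**Figure D4:**
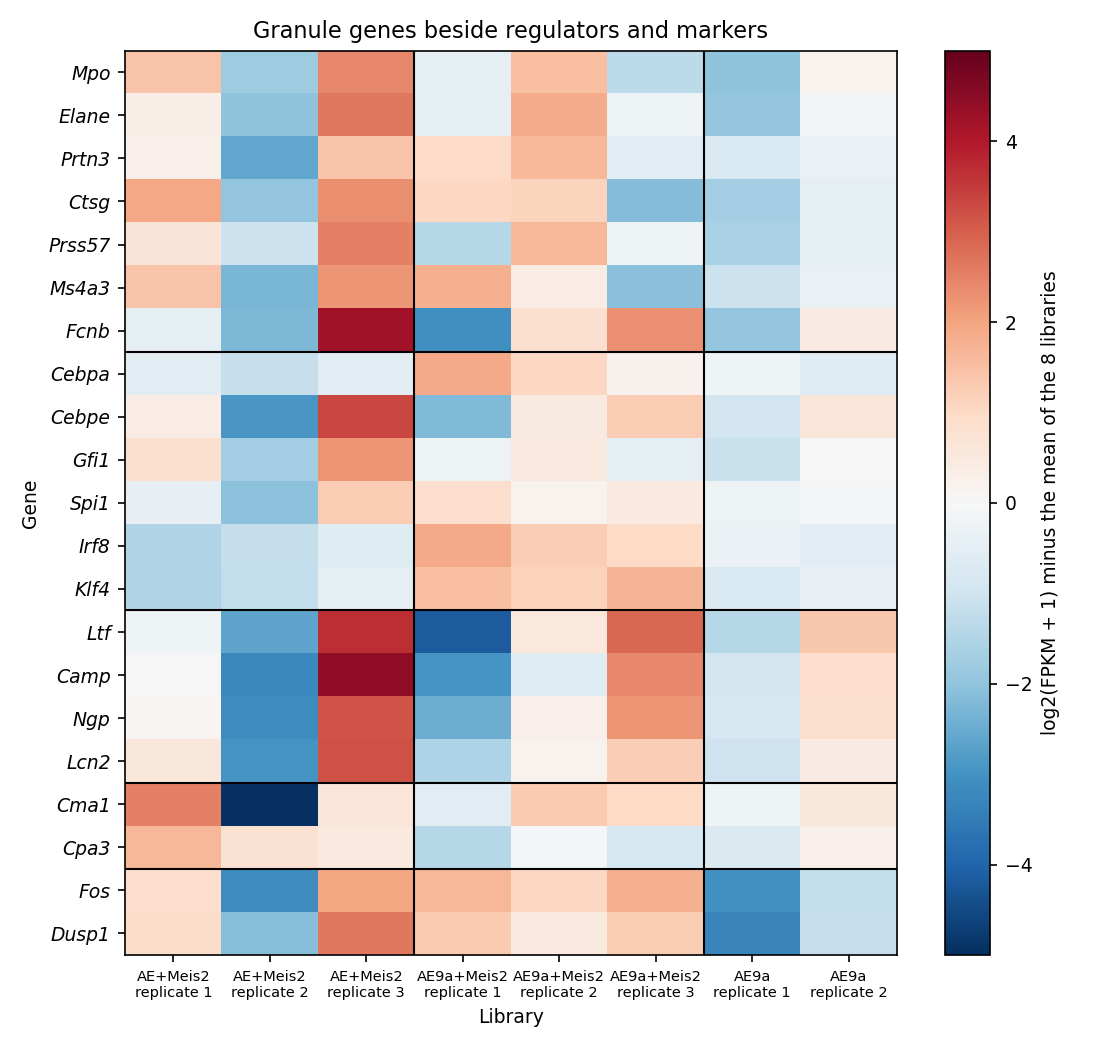
Colour gives log2(FPKM + 1) minus the mean over the 8 libraries for the 7 granule genes, 6 regulators, 4 secondary granule genes, 2 mast cell genes and 2 stress genes, red above and blue below the mean. AE+Meis2 replicate 3 is red and AE+Meis2 replicate 2 blue for all 7 granule genes. Fcnb follows Cebpe, Ltf, Camp and Ngp in AE9a+Meis2 replicates 1 and 3. Other secondary granule genes, not shown, did not all do so.

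The regulators of granule genes did not follow the groups in 1 way. In limma 0 of 12 granulocyte regulators passed in any of the 3 comparisons, against 0.0478%, 0.0398% and 0.0318% of all genes tested. With so few genes called, a count of 0 says little about a list, here and for the lists below. Higher in the 3 comparisons were 49.8%, 54.9% and 55.9% of all genes tested. Of the 12, 10 were higher in AE9a+Meis2 than in AE9a (median log2 0.87), 4 were higher with AE+Meis2 than with AE9a+Meis2 (median -0.34), and 7 were higher in AE+Meis2 than in AE9a (median 0.26). Cebpa, the C/EBP factor that commits progenitors to the granulocyte and monocyte lines, was at 10.2, 6.44 and 10.4 FPKM in AE+Meis2, at 59.4, 32.5 and 17.96 FPKM in AE9a+Meis2 marrows, and at 12.97 and 9.50 FPKM in AE9a marrows. The AE9a+Meis2 libraries lay above the other 5 for Cebpa (log2 -1.78 ± 0.42 for AE+Meis2 against AE9a+Meis2, limma adjusted p = 0.421, and 1.48 ± 0.47 for AE9a+Meis2 against AE9a, adjusted p = 1). Groups did not overlap for 13.5% and 23.8% of all genes tested in these 2 comparisons. The monocyte factors Irf8 (log2 -2.47 ± 0.32) and Klf4 (-2.51 ± 0.32) had the smallest limma p of the list in AE+Meis2 against AE9a+Meis2, with adjusted p = 0.0797 for each. The 7 granule genes did not share this order of groups. Spi1, which encodes PU.1, was at 89.6, 28.3 and 287 FPKM in AE+Meis2, at 223, 136 and 166 FPKM in AE9a+Meis2 marrows, and at 99.6 and 110.2 FPKM in AE9a marrows. Myb, a factor of immature cells, was lowest in AE9a+Meis2 replicate 3, at 25.7 FPKM, and ran from 70.2 to 159 FPKM in the others. Runx1 differed by -0.80 ± 0.34 in AE+Meis2 against AE9a (limma adjusted p = 0.830).

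Enzymes and carriers that process and pack the granule proteins varied less. Of 12 such genes 0 passed limma in any comparison, and 8, 7 and 10 were higher in the 3 comparisons, in the order above (median log2 0.25, 0.11 and 0.34). The shares over all genes tested were 49.8%, 54.9% and 55.9%. Ctsc, which activates the proteases, was at 114 FPKM, 33.4 FPKM and 128 FPKM in AE+Meis2, at 118, 111 and 169 FPKM in AE9a+Meis2 marrows, and at 95.4 and 77.9 FPKM in AE9a marrows. It was highest in AE9a+Meis2 replicate 3, a library in which Ctsg was lowest. Srgn (serglycin), the proteoglycan core that holds proteases in granules, ran from 901 to 2572 FPKM in AE+Meis2, from 902 to 1215 FPKM in AE9a+Meis2 and from 920.1 to 1249 FPKM in AE9a. Cd63, a granule membrane tetraspanin, was lowest in AE+Meis2 replicate 2, at 44.3 FPKM. Calr (calreticulin), a chaperone of Mpo, was at 514, 383 and 539 FPKM in AE+Meis2, at 271, 469 and 299.7 FPKM in AE9a+Meis2 marrows, and at 170.1 and 353 FPKM in AE9a marrows. Its difference of 0.95 ± 0.38 between AE+Meis2 and AE9a did not pass (limma adjusted p = 0.826).

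Inhibitors of granule proteases were 5 in number, and 0 passed limma in any comparison. Higher were 2, 3 and 5 of the 5 in the 3 comparisons, in the order above (median log2 -0.29, 0.76 and 0.65). Among all genes tested it was 49.8%, 54.9% and 55.9%. Cst7 (cystatin F), which inhibits the activator Ctsc, was at 139, 154 and 126 FPKM in AE+Meis2, at 41.5, 29.9 and 56.0 FPKM in AE9a+Meis2 marrows, and at 36.7 and 95.3 FPKM in AE9a marrows. As labelled, its AE+Meis2 libraries were close together and above the other 5. The 139 FPKM is from the library labelled AE+Meis2 replicate 1. If that library belonged to a group with AE9a, that group would overlap AE+Meis2. Of all genes tested, 13.5% did not overlap between AE+Meis2 and AE9a+Meis2, and 18.6% between AE+Meis2 and AE9a. The log2 difference of Cst7 in AE+Meis2 was 1.73 ± 0.38 against AE9a+Meis2 (limma adjusted p = 0.344) and 1.22 ± 0.42 against AE9a (adjusted p = 0.720). Serpinb1a, an intracellular inhibitor of Elane, Prtn3 and Ctsg, was at 335, 48.9 and 1112 FPKM in AE+Meis2, at 159 FPKM, 137 FPKM and 174 FPKM in AE9a+Meis2 marrows, and at 159 and 230.2 FPKM in AE9a marrows. It was thus low in AE+Meis2 replicate 2 and high in replicate 3, as Elane was. Slpi, a secreted elastase inhibitor, ran from 11.6 to 546 FPKM in AE+Meis2, from 170.1 to 405 FPKM in AE9a+Meis2 and from 27.2 to 76.6 FPKM in AE9a (2.30 ± 1.40 between AE9a+Meis2 and AE9a, limma adjusted p = 1). Serpinb6a, an intracellular inhibitor of Ctsg, was highest in AE+Meis2 replicate 2 at 68.7 FPKM, against 12.2 to 21.6 FPKM elsewhere. Cst3 (cystatin C) differed by 0.99 ± 0.42 between AE9a+Meis2 and AE9a (limma adjusted p = 1).

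Other contents of the primary granule, were represented by 12 lysosomal and antimicrobial genes. Of 11 tested, all 11 were higher in AE9a+Meis2 than in AE9a (median log2 0.53), 3 were higher with AE+Meis2 than with AE9a+Meis2 (median -0.18) and 10 were higher in AE+Meis2 than in AE9a (median 0.34). Over all genes tested the shares higher were 49.8%, 54.9% and 55.9%, and here too 0 passed limma. Lyz2 (lysozyme) was at 613, 555 and 9350.3 FPKM in AE+Meis2, at 3546, 1980.0 and 2993 FPKM in AE9a+Meis2 marrows, and at 1186 and 1142 FPKM in AE9a marrows. The library labelled AE+Meis2 replicate 1, rich in Mpo, was thus poor in Lyz2, and Lyz2 over Mpo ran from 0.480 there to 15.9 in AE9a+Meis2 replicate 3. Cd68, a lysosomal membrane protein also made by macrophages, differed by 0.84 ± 0.27 between AE9a+Meis2 and AE9a (limma adjusted p = 1) and by -0.75 ± 0.24 in AE+Meis2 against AE9a+Meis2 (adjusted p = 0.616). The sulfatase Arsb differed by 1.84 ± 0.86, the aspartic protease Ctsd by 0.86 ± 0.40 and the glucosidase Gaa by -0.47 ± 0.28 in AE+Meis2 against AE9a (limma adjusted p = 0.881, 0.881 and 0.950). Bpi was at most 0.244 FPKM and was not tested.

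Genes expressed beside the granule genes in promyelocytes gave a similar picture to Mpo in the comparisons with AE9a. Of 9, 8 were higher in AE9a+Meis2 than in AE9a (median log2 1.05), 5 were higher with AE+Meis2 than with AE9a+Meis2 (median 0.16) and all 9 were higher in AE+Meis2 than in AE9a (median 0.82), with 0 past limma's threshold in each. Of all genes tested, 49.8%, 54.9% and 55.9% were higher. Plac8 was at 1681, 389 and 3436 FPKM in AE+Meis2, at 1267, 1321 and 835 FPKM in AE9a+Meis2 marrows, and at 421 and 516.5 FPKM in AE9a marrows. Its order of libraries put AE+Meis2 replicate 2 last, as for Elane, Prtn3 and Ms4a3. Nkg7, a granule membrane protein also found in cytotoxic cells, was at 48.9, 20.4 and 101 FPKM in AE+Meis2, at 4.65, 30.0 and 23.3 FPKM in AE9a+Meis2 marrows, and at 10.95 and 31.1 FPKM in AE9a marrows. The glutathione transferases Mgst1 (1.70 ± 1.07) and Gstm1 (1.41 ± 0.82) had the smallest p besides Plac8 and Nkg7, between AE9a+Meis2 and AE9a, with limma adjusted p = 1 for both.

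The relatives of the 7 genes, by family and by position, were mostly silent or belonged to other cells. On chromosome 11 the peroxidase genes beside Mpo stayed low in all libraries, Lpo at or below 0.847 FPKM and Epx, the eosinophil peroxidase, at or below 2.42 FPKM. On chromosome 10 Cfd, the serine protease gene next to Elane, was at most 0.707 FPKM. The housekeeping neighbours Ptbp1 (109 to 148 FPKM) and Med16 (10.9 to 18.1 FPKM) varied little next to Prtn3 and Elane, which varied 19.9-fold and 25.9-fold. Other neighbours were less steady, with Palm at 4.86 to 87.0 FPKM and R3hdm4 at 55.4 to 240.3 FPKM. On chromosome 14 Ctsg stands between mast cell proteases and granzymes. Gzme, Gzmd, Gzmg, Gzmn, Gzmf and Gzmc were at most 0.566 FPKM, while Cma1 (mast cell chymase) ran from 3.30 to 962 FPKM and Mcpt8, a basophil protease, from 3.03 to 43.2 FPKM. Ms4a2, the neighbour of Ms4a3 that encodes a subunit of the IgE receptor, was at 226, 4.65 and 58.3 FPKM in AE+Meis2, at 106, 234 and 177 FPKM in AE9a+Meis2 marrows, and at 293 and 558 FPKM in AE9a marrows. Ms4a2 was highest in AE9a, the group in which Ms4a3 stayed at or below 105 FPKM. Ms4a3 was lower still in AE9a+Meis2 replicate 3 (30.5 FPKM) and AE+Meis2 replicate 2 (26.1 FPKM). The latter was the lowest library for both genes, so they did not run opposite throughout.

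Of 28 relatives listed, 27 were in the table and 16 were tested, with 0 past limma's threshold in any comparison. Higher were 11, 8 and 7 of the 16 in the 3 comparisons, in the order above (median log2 0.56, -0.05 and -0.08). For all genes tested the shares were 49.8%, 54.9% and 55.9%. Fcna, the ficolin made by macrophages, was at 14.2, 5.97 and 3.34 FPKM in AE+Meis2, at 2.93, 2.02 and 2.84 FPKM in AE9a+Meis2 marrows, and at 9.35 and 11.7 FPKM in AE9a marrows. Its difference of -1.68 ± 0.49 in AE9a+Meis2 against AE9a did not pass (limma adjusted p = 1), and its highest library, labelled AE+Meis2 replicate 1, was not the one highest in Fcnb. The family members Ms4a6c, Ms4a4c and Ms4a6b differed by 0.77 ± 0.43, 1.30 ± 0.45 and 0.89 ± 0.31 in the same comparison (limma adjusted p = 1 for each).

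**Figure D5:**
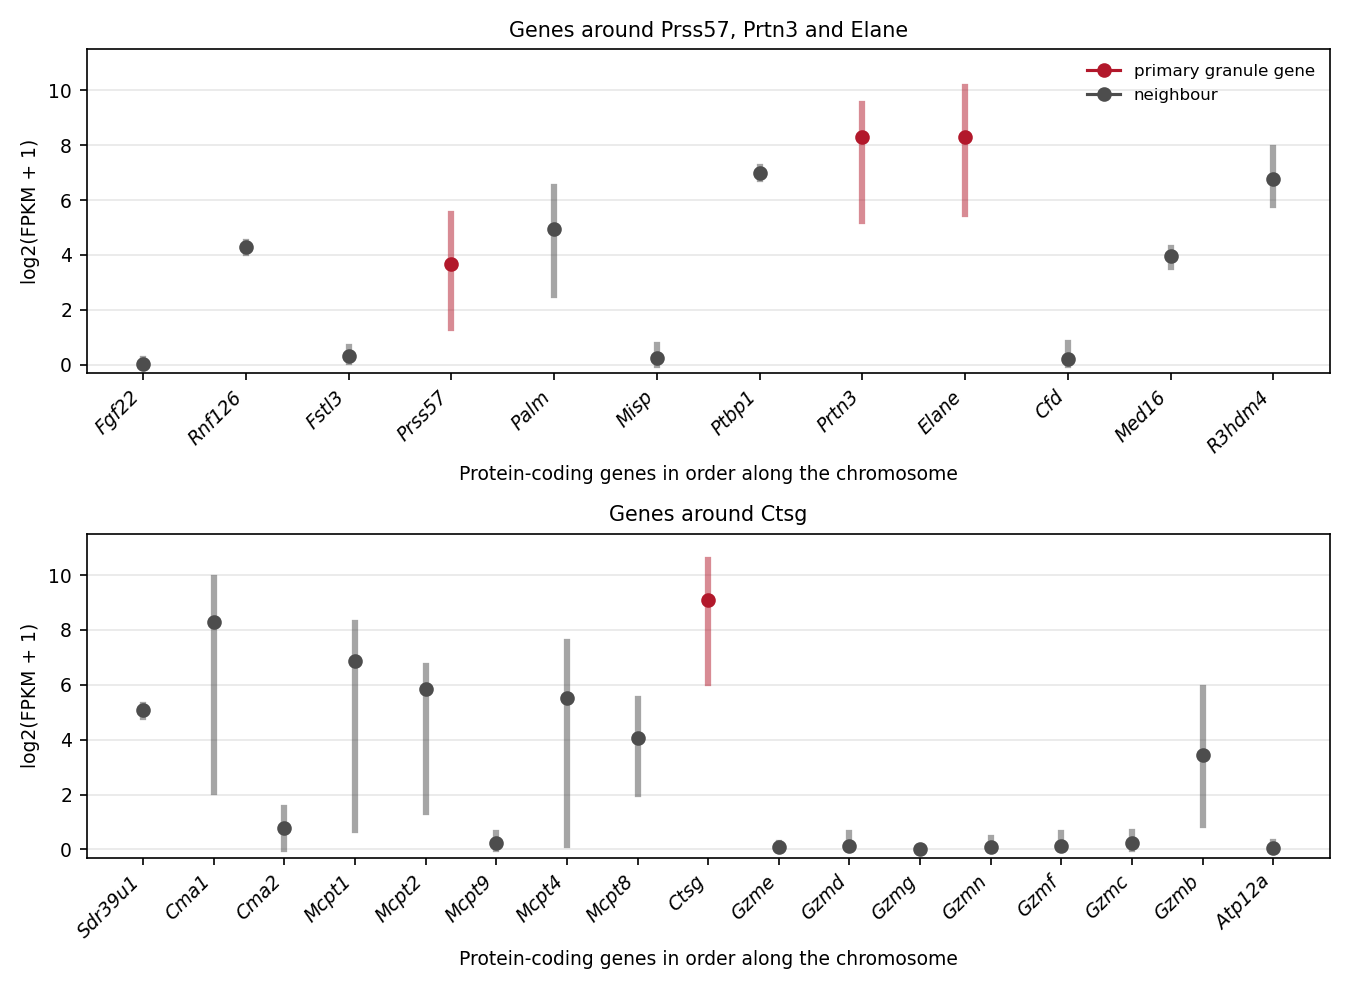
Mean and range over the 8 libraries of log2(FPKM + 1) for protein-coding genes in chromosomal order around Prss57, Prtn3 and Elane (upper panel) and around Ctsg (lower panel), primary granule genes in red. Elane and Prtn3 lie between Ptbp1, which stays within 109 to 148 FPKM, and Cfd, which stays at or below 0.707 FPKM, and the granzyme genes next to Ctsg are near 0 except Gzmb.

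Markers of other cells moved with the granule genes in some libraries. Genes of secondary granules and mature neutrophils (15 genes) summed to 21406, 2468 and 207289 FPKM in AE+Meis2, to 7146, 23596 and 64619 FPKM in AE9a+Meis2 and to 9192 and 35404 FPKM in AE9a. AE+Meis2 replicates 2 and 3 were again the lowest and the highest library. S100a9 is listed at 0 for the whole AE+Meis2 group, which can be a failed estimate. It adds 466 to 22245 FPKM to the sums of the other libraries, so the sums are not comparable between AE+Meis2 and the other groups. S100a8 alone was at 131098 FPKM in AE+Meis2 replicate 3, so that sum rests largely on 1 gene. In limma 0 of the 15 passed in any comparison (adjusted p = 0.0572 for S100a9, whose group at 0 gives no fold change). Retnlg, Cxcr2 and Hp, next by p-value, differed by 2.20 ± 1.91, 1.69 ± 1.44 and -1.26 ± 0.92 in AE+Meis2 against AE9a+Meis2.

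AE+Meis2 replicate 2, poorest in granule genes, was the lowest of the 8 libraries for 7 of 11 mast cell and basophil genes, among them Cma1 at 3.30 FPKM and Hdc at 7.79 FPKM. The list did not move as 1 there: Gata2, at 189 FPKM, was the highest of the 8, Cpa3, at 1005 FPKM, was the second highest, and the sum of the list, 1363 FPKM, was above that of AE9a+Meis2 replicate 1 (824 FPKM) and AE9a replicate 1 (1275 FPKM). It had the highest values of Itga2b (255 FPKM, megakaryocytes) and Kit (224 FPKM, progenitors and mast cells). AE+Meis2 replicate 3, richest in granule genes, had the lowest sum of 11 erythroid genes, 606 FPKM. That sum was 606 to 5496 FPKM in AE+Meis2, 1286 to 3633 FPKM in AE9a+Meis2 and 2120.4 to 3571 FPKM in AE9a. The sum of 11 mast cell and basophil genes was 1363 to 4693 FPKM in AE+Meis2, 824 to 2105 FPKM in AE9a+Meis2 and 1275 to 2692 FPKM in AE9a. Stress and dissociation genes (11 genes, Fos and Dusp1 among them) summed to 529.6 to 2662 FPKM in AE+Meis2, 1270.2 to 1933 FPKM in AE9a+Meis2 and 281 to 684 FPKM in AE9a. AE9a replicate 1 and AE+Meis2 replicate 2 had the lowest sums. Of 9 stress genes tested, 8 were higher in AE9a+Meis2 than in AE9a (median log2 2.61). In limma 6 of these 9 had an unadjusted p under 0.05, against 3.06% of all genes tested, and 0 passed after adjustment. With AE+Meis2 against AE9a+Meis2, 2 of the 9 were higher (median -0.69), and with AE+Meis2 against AE9a all 9 were (median 1.44). At 1 FPKM or more were 8 to 11 of the 11 mast cell genes, 10 or 11 of the 11 erythroid genes, 9 or 10 of the 11 stress genes and 14 or 15 of the 15 neutrophil genes in each library. None of the 11 mast cell or 11 erythroid genes was at 0 in any library. The part that cell mix, handling of the marrow or depth had in the granule values was not tested.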

How the data were processed

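RNA of 8 leukemic mouse marrows was sequenced. The authors deposited 1 table of FPKM values. The authors' tools for these FPKM values were TopHat, Cufflinks and Cuffdiff on build mm10, per the submitters' processing notes. The sources used here give no versions, annotation or scaling between libraries. The library kit does not keep the strand. FPKM tables hold no read counts, so no counting error can be stated and depth is known only in relative terms, from the spacing of low values. Small RNAs (1232 entries) held 8.66% to 37.9% of the summed FPKM of a library. FPKM is per length, so this is not their share of the reads. What they did to the values of other genes was not tested.

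Groups were read from the sample titles. Nothing ties a library to a donor or a transduction, so p-values reflect only how far these libraries spread, which may be partly technical. Values were analysed as log2(FPKM + 1), which understates the change of low genes. A gene was tested where 2 or more libraries had at least 1 FPKM, which left 12565 genes. The model of limma 3.58.1 (R 4.3.3) had a mean for each group, used every library and allowed a variance trend (prior degrees of freedom 2.28, residual 5). Adjustment was by Benjamini-Hochberg over all genes, with a threshold of 0.05. The procedure was tested on simulated data. Lists are described by counts and medians, with no test over a list. Versions for the tables and plots were Python 3.11.15, matplotlib 3.10.9, NumPy 2.4.6 and pandas 2.3.3.

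The 7 genes and all lists were chosen with earlier results of these data known. Beside the 7, the genes named are up to 4 of each list with the smallest p in any comparison, some regulators with Ctsc, Serpinb1a and Lyz2 whatever their result, and the 10 genes most alike in pattern. Neighbours follow the RefSeq gene order. Marker genes named singly, and genes that check a library, were chosen after their values were seen. Other settings covered the pseudocount, the filter, the scaling, the variance model, the libraries in the fit and the replicate numbers.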

Additional observations from a re-analysis of the deposited data

How the results depend on the processing

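Over 19 other settings the 7 genes gave 399 values, of which 372 kept their direction, 27 changed it and 0 passed the threshold (lowest limma adjusted p = 0.437). Leaving out 1 library made 20 of the 27 changes. Of the rest, Fcnb in AE9a+Meis2 against AE9a was at -1.56 with AE9a+Meis2 replicate 3 and AE9a replicate 1 both left out. Without these, Ctsg and Ms4a3 in AE+Meis2 against AE9a+Meis2 were at -0.32 and -0.61. Prtn3 in AE+Meis2 against AE9a was at -0.21 after quantile normalization and at -0.13 with small RNAs left out. With 1 library left out, the differences that changed sign in AE9a+Meis2 against AE9a ranged from -0.25 to 1.92 for Mpo, -0.15 to 1.77 for Ms4a3 and -0.42 to 2.30 for Fcnb. In AE+Meis2 against AE9a+Meis2 all 7 did: Mpo -0.087 to 1.99, Elane -1.21 to 1.12, Prtn3 -1.86 to 0.15, Ctsg -0.32 to 2.13, Prss57 -0.22 to 1.58, Ms4a3 -0.61 to 1.82 and Fcnb -1.35 to 1.87. In AE+Meis2 against AE9a they ranged from -0.63 to 1.38 for Prtn3 and -0.59 to 2.63 for Fcnb. The cause was not tested.

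Counts of genes past the threshold were small and unsteady. In AE9a+Meis2 against AE9a the 6 genes became 3 with a pseudocount of 10 and 3 without that pair, and 2 to 9 when 1 library was left out (2 without AE9a replicate 1). In AE+Meis2 against AE9a+Meis2 the 5 genes became 2 with a pseudocount of 10, 14 with small RNAs left out and 12 with upper-quartile scaling, a setting chosen after seeing the data. Leaving out 1 library gave 6 to 23 (8 without AE+Meis2 replicate 1 or 2, 23 without replicate 3, 9 without AE9a+Meis2 replicate 1). In AE+Meis2 against AE9a the 4 genes became 0 with a pseudocount of 10, 1 with no filter, 0 with small RNAs left out, 2 with only the 2 groups compared, and 1 to 10 when 1 library was left out (1 without AE+Meis2 replicate 1 or AE9a replicate 1, 2 without AE9a+Meis2 replicate 2, 10 without AE+Meis2 replicate 3). The median of the 7 genes ran from 0.43 to 1.76, from -0.44 to 1.82 and from 0.29 to 2.61 in the 3 comparisons when 1 library was left out, so its sign was not steady in AE+Meis2 against AE9a+Meis2.

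Whether the replicate numbers pair the libraries is not stated, and the values did not settle it. The 7 same-numbered pairs deviated from their group means with correlations of -0.03 to 0.13, and 5 of 8 libraries correlated best with one of their own number. In AE9a, with 2 libraries, the deviations mirror each other, so the check is weak there. With the replicate number as a block the counts were 2, 5 and 0 genes, Fcnb was at -0.73 in AE9a+Meis2 against AE9a and at -0.24 in AE+Meis2 against AE9a, and no granule gene passed. The limits are 2 or 3 libraries a group, unknown depth and an uneven spread: a gene of this residual SD can differ by several fold between groups without passing.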

Other observations

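Monocyte and megakaryocyte genes mark lines that share progenitors with granulocytes. Of 12 monocyte and macrophage genes tested, 6 were higher in AE9a+Meis2 than in AE9a (median log2 -0.18), 7 were higher with AE+Meis2 than with AE9a+Meis2 (median 0.90) and 7 were higher in AE+Meis2 than in AE9a (median 0.13). Over all genes tested, 49.8%, 54.9% and 55.9% were higher in these comparisons. In limma 0 of the 12 passed the threshold of 0.05 in any of these. At an unadjusted p under 0.05, in either direction, there were 1, 7 and 2 of the 12, against 3.06%, 7.15% and 5.98% of all genes tested. The list did not move as 1. The macrophage gene C1qb was at 143, 85.1 and 15.2 FPKM in AE+Meis2 against 13.7, 8.40 and 12.3 FPKM in AE9a+Meis2. The monocyte gene Ccr2 was lower, at 23.3, 25.3 and 68.8 FPKM against 87.3, 96.9 and 142 FPKM, and Ly86 was lower as well. The summed level of the 12 genes was 386 to 873 FPKM in AE+Meis2, 545 to 1026 FPKM in AE9a+Meis2 and 524 to 593 FPKM in AE9a. Megakaryocyte genes summed to 95.2, 358 and 13.8 FPKM in AE+Meis2, against 12.2 to 17.0 FPKM in AE9a+Meis2 and 17.7 to 24.0 FPKM in AE9a. The library with the highest megakaryocyte sum, AE+Meis2 replicate 2, was the one with the lowest primary granule sum.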
